A study of Mus musculus with 6 samples.

Results

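Heat shock proteins and their cochaperones are the genes described here: 42 gene symbols, chosen by name, that cover the Hsp70, Hsp110, Hsp90, J protein, mitochondrial, CCT and small heat shock protein families, the proteins that regulate them and the heat shock factors HSF1 and HSF2. All 42 were among the 14744 genes of the deposited table, and 41 of them passed the minimum used for testing, 10 normalized counts or more in 3 or more of the 6 libraries, as did 11296 genes in all. *Hspa1a* was the member under that minimum.

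RNA was sequenced from T follicular helper (Tfh) cells, which give help to germinal center B cells, sorted as CD4+B220-CD44+PD-1+CXCR5+ from the mesenteric lymph nodes (MLNs) of C57BL/6 mice 2 to 3 months old. WT here means littermates that carry Cd4-Cre. The groups were 3 WT libraries and 3 libraries from *Bach2*fl/fl mice with Cd4-cre, labelled Bach2-cKO. Cd4-cre acts in T cells during their development in the thymus, so CD4 and CD8 lineages both carry the deletion. Each library came from 10000 to 30000 cells, and the mice behind each library were not stated, so p-values measure the spread between these samples.

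Chaperones of the Hsp70 and Hsp90 families bind unfolded or immature proteins and pass them on with the help of cochaperones, which load the client, set the pace of ATP hydrolysis or release the product. The ring-shaped CCT complex folds actin and tubulin, and Hsp60 with Hsp10 folds proteins in the mitochondrial matrix. Many of these genes are induced by heat or by stress during cell isolation through HSF1, which binds repeated GAA and TTC units in their promoters, and T cells also raise several of them upon activation.

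The values are normalized read counts, the reads of a gene divided by a size factor of the library. *Bach2*, the deleted gene, was at 233, 222 and 105 normalized counts in WT replicates 1, 2 and 3 and at 399, 763 and 591 in replicates 1, 2 and 3 labelled Bach2-deficient. All 3 WT libraries lay below all 3 others (log2 fold change 1.68, standard error 0.37, limma adjusted p = 0.141). The gene thus goes against the label, for which reason "labelled Bach2-deficient" is written throughout. Which exons the reads lie on was not analysed here, and 3 genes overlap *Bach2* (chr4:32238804-32586108), 1 of them on the opposite strand. The values of a library summed to 7809702, 7387316 and 8135325 in WT replicates 1, 2 and 3 and to 7456435, 7362290 and 7361229 in replicates 1, 2 and 3 labelled Bach2-deficient. WT replicate 1 stood apart, since 11648 of its genes had a value over 0 and the other libraries had 13111 to 13567 such genes. WT replicate 2 stood apart by the plasma cell gene *Jchain*, at 316, 28803 and 6972 in WT and 2075, 472 and 484 in the other group. The T cell gene *Cd3d* was present in every library, at 15854, 18785 and 24100.1 in WT and 19522, 18739.8 and 17543 in the other group. Of the markers used in the sort, *Cxcr5* was at 1613, 1444 and 2039 in WT and 2028, 1271 and 2207 in the other group. *Pdcd1*, which encodes PD-1, overlapped between groups too, with a log2 fold change of -0.26. *Cd4* and *Cd44* were higher without overlap in the group labelled Bach2-deficient, with log2 fold changes of 0.49 and 0.93. Tfh markers differed in both directions. Of 14, 4 were higher and 2 lower without overlap in the group labelled Bach2-deficient, where 14.6% of all genes were higher and 12.2% lower. *Cd3e* and *Icos* were lower, with log2 fold changes of -1.02 and -1.03, and *Tox2* was higher, at 1.10.

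Promoter stretches with GAA and TTC units are shown first. RefSeq windows of 300 bases, 250 before and 50 after the start site on GRCm38.p6, were found for 35 of the 42 members. They were searched on both strands for GAANNTTC and TTCNNGAA, the 2 ways in which neighbouring GAA and TTC units can face each other. GAANNTTC was in the windows of 13 of the 35 members and of 9.036% of 27025 genes, and TTCNNGAA in those of 9 members and 9.599% of genes. Runs of 3 or more alternating units, in which both pairs overlap, were in the windows of 5 members and of 0.662% of genes. These 5 were *Chordc1*, *Dnajb6*, *Hspd1*, *Hspe1* and *Hsph1*. Shown here are the runs that lie wholly before the start site, those of *Hspd1*, *Hspe1* and *Dnajb6*, and for comparison the single pairs of *Hspa1a*, *Hspa1b* and *Fkbp4*. Each is printed 5′ to 3′ on the strand of its gene, with the matched units in capitals.
Hspd1, chr1:55088039-55088096, minus strand: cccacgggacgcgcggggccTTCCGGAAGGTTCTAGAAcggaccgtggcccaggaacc
Hspe1, chr1:55088039-55088096, plus strand: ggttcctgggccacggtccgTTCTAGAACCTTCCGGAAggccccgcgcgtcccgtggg
Dnajb6, chr5:29735832-29735884, plus strand: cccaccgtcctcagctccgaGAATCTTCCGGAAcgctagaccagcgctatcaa
Hspa1a, chr17:34972233-34972280, minus strand: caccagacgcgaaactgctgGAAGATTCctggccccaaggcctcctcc
Hspa1b, chr17:34959315-34959362, minus strand: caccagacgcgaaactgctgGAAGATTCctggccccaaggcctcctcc
Fkbp4, chr6:128438780-128438827, minus strand: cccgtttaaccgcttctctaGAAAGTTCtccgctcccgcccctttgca
The first 2 lines are the same bases read on opposite strands: *Hspd1* and *Hspe1*, the genes of Hsp60 and Hsp10, lie head to head on chromosome 1 and share this stretch between their RefSeq start sites. The stretches of *Hspa1a* and *Hspa1b* have the same bases at 2 places on chromosome 17. A match describes the letters of the window and is no evidence of binding.

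**Figure D1:**
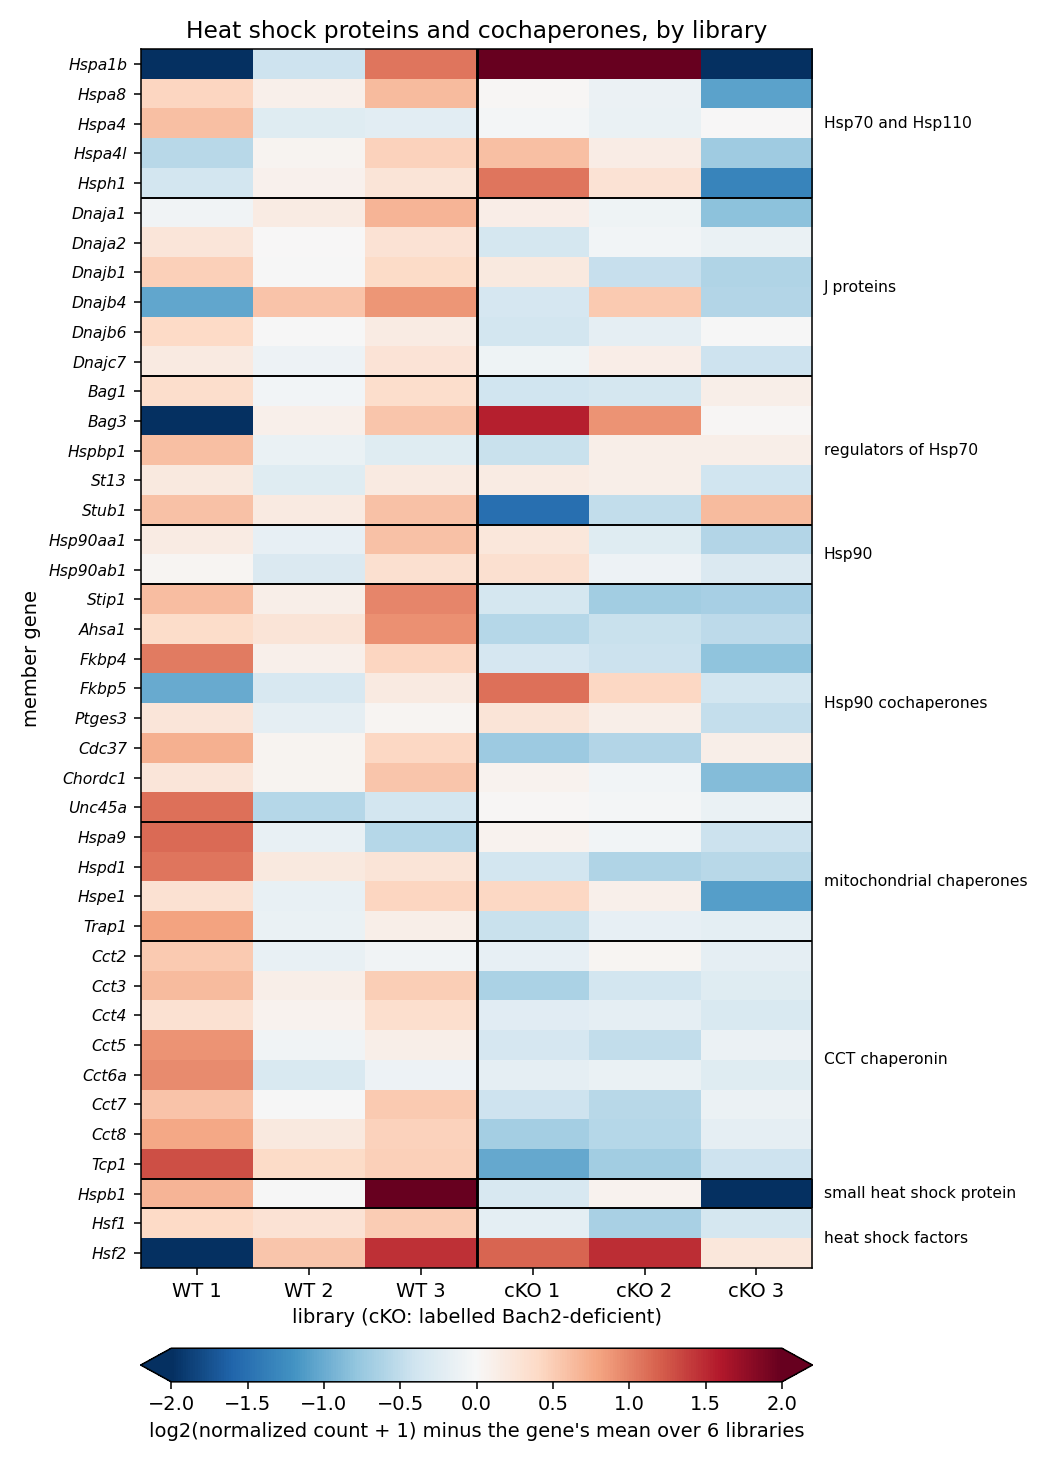
Heat map of the 41 members past the minimum, with genes as rows ordered by role and the 6 libraries as columns. Color is log2(normalized count + 1) minus the mean of the gene over the 6 libraries, cut at 2 in either direction. The 6 CCT subunits whose groups did not overlap, *Stip1* and *Ahsa1* are redder in WT, while *Hspa8*, *Hsph1* and *Hspe1* are bluest in replicate 3 labelled Bach2-deficient.

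Across the 41 members the differences leaned to lower values in the libraries labelled Bach2-deficient, and none passed an adjusted p under 0.01 in limma. The median log2 fold change, libraries labelled Bach2-deficient minus WT on log2(normalized count + 1), was -0.40, against 0.08 for all 11296 genes tested, and 35 of 41 members had a negative value against 5111 of 11296 genes. On this scale the changes of scarce genes can come out too small, and a library at or near 0 can instead make them large. The *Hsf2* log2 fold change, with WT replicate 1 at 0, was 1.92 in limma and -0.06 in DESeq2 without that library. At an adjusted p under 0.01 with a change of more than 2-fold, limma called 0 members and 0 of all genes, or 0% of those tested. At an unadjusted p under 0.05, limma had 14 members lower, where 10.2% of all genes were lower, and 0 members higher, where 10.1% of all genes were higher. The groups did not overlap in 14 members that were lower, against 12.2% of all genes, and in 0 members that were higher, against 14.6% of all genes. Without WT replicate 1, 12 members were lower and 0 higher at an unadjusted p under 0.05, where 9.43% of all genes were lower, and the members' median was -0.34; without WT replicate 2, 17 were lower and 0 higher, where 10.2% of all genes were lower, and the median was -0.56. Without replicate 1 labelled Bach2-deficient, 13 members were lower and 0 higher, and of all genes 606 were lower and 468 higher. Without replicate 2 of that group, 10 members were lower and 0 higher, and of all genes 669 were lower and 535 higher. With 3 libraries against 3, an exact 2-sided permutation test of 1 gene cannot give a p under 0.1. In bulk RNA, fewer cells that express a gene and less RNA per cell cannot be told apart.

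Count tests were run on reads recovered from 5 libraries, without WT replicate 1. DESeq2 called 3 members lower at an adjusted p under 0.01 and more than 2-fold, *Stip1*, *Ahsa1* and *Tcp1*, where 0.505% of all genes were called lower, and 0 members higher, where 0.292% of all genes were called higher. edgeR called 0 members and 0 genes by the same thresholds, and had 13 members lower and 0 higher at an unadjusted p under 0.05, where 8.77% of all genes were lower and 1079 genes higher.

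**Figure D2:**
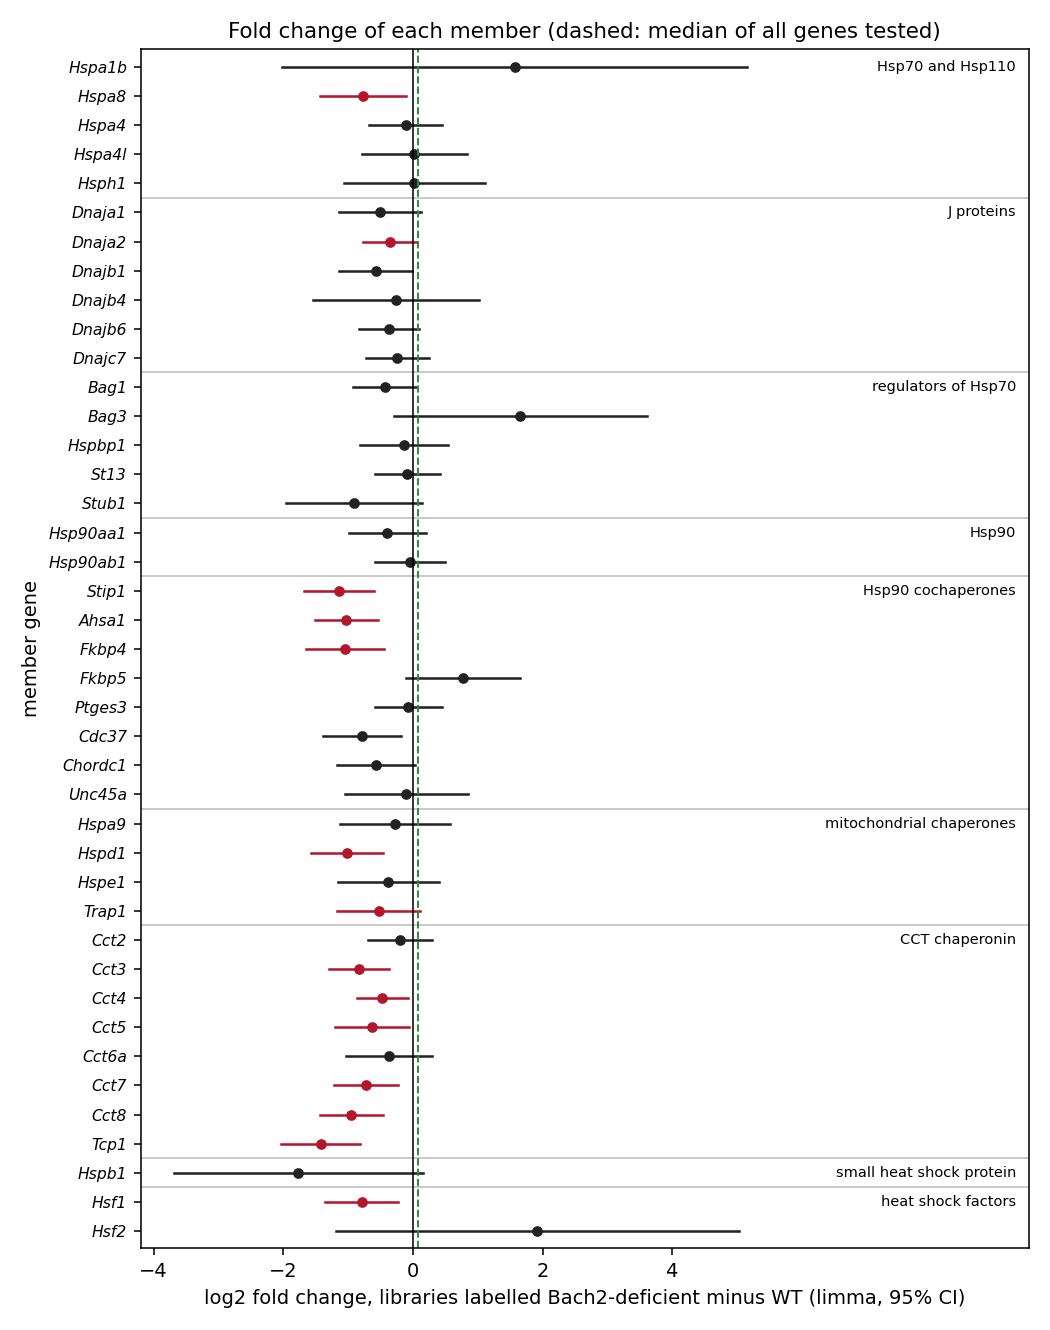
Log2 fold change of each of the 41 members, libraries labelled Bach2-deficient minus WT, from limma on 6 libraries, with bars for 95% confidence intervals. Red marks the 14 members whose groups did not overlap, all of them with negative values. The dashed line is the median of all genes tested, 0.08.

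Among the Hsp70 and Hsp110 genes, the constitutive chaperone *Hspa8* was the most abundant of this family in each library, and the stress-induced *Hspa1a* and *Hspa1b* were scarce. *Hspa8* (chr9:40800984-40810087) was at 23314, 18428 and 26688 normalized counts in WT replicates 1, 2 and 3 and at 17422, 15925 and 8209 in replicates 1, 2 and 3 labelled Bach2-deficient. All 3 WT libraries lay above all 3 others, and replicate 3 labelled Bach2-deficient lay far below its own group. The *Hspa8* log2 fold change was -0.78, with a standard error of 0.30 and a 95% interval of -1.44 to -0.11 (limma adjusted p = 0.199). The annotation places 3 small nucleolar RNA genes within the span of *Hspa8*. Whether they overlap its exons, and whether their reads entered its count, was not analysed here. *Hspa8* was lower at an unadjusted p under 0.05 with 6 libraries, but not without WT replicate 3, without replicate 3 labelled Bach2-deficient or with no variance trend; its log2 fold change ran from -0.98 to -0.44 over the fits that each left out 1 library.

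*Hspa1b*, an Hsp70 that is nearly silent without stress, was at 1.009, 11.2 and 33.3 normalized counts in WT replicates 1, 2 and 3 and at 154, 69.0 and 1.02 in replicates 1, 2 and 3 labelled Bach2-deficient. The high libraries were replicates 1 and 2 labelled Bach2-deficient, while replicate 3 of that group was as low as WT replicate 1, so the groups overlapped. The *Hspa1b* log2 fold change was 1.57, with a standard error of 1.62 and a 95% interval of -2.02 to 5.16 (limma adjusted p = 0.584). It was 0.33 without replicate 1 labelled Bach2-deficient, 0.45 without WT replicate 1 and 3.46 without replicate 3 labelled Bach2-deficient. *Hspa1a* was at 8.07, 1.12 and 2.08 normalized counts in WT replicates 1, 2 and 3 and at 31.0, 10.7 and 0 in replicates 1, 2 and 3 labelled Bach2-deficient. Its highest library was again replicate 1 labelled Bach2-deficient, and its own lowest was replicate 3 of that group. The 2 transcripts are near copies, with 58.8% of the 50-base windows of *Hspa1a* found in *Hspa1b*, so reads may have been shared or dropped between them and both sets of values are uncertain.

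*Hsph1*, which encodes Hsp110, a nucleotide exchange factor for Hsp70, was at 856, 1167 and 1311 normalized counts in WT replicates 1, 2 and 3 and at 2328, 1341 and 439 in replicates 1, 2 and 3 labelled Bach2-deficient. Replicate 1 labelled Bach2-deficient was the highest of the 6 libraries and replicate 3 the lowest, with the WT libraries between. The *Hsph1* log2 fold change was 0.02, with a standard error of 0.49 and a 95% interval of -1.07 to 1.12 (limma adjusted p = 0.984). The sign of its log2 fold change turned with the scaling, to -0.06 with medians set equal and -0.25 after removal of the length and GC trend, and it was -0.51 without replicate 1 and 0.69 without replicate 3 labelled Bach2-deficient. *Hspa4*, a related exchange factor, and *Hspa4l* had log2 fold changes of -0.11 and 0.02, and both signs turned in other settings of the analysis.

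Of the J proteins, which bring clients to Hsp70 and stimulate its ATPase, 6 of 6 had negative log2 fold changes, from -0.58 to -0.24. *Dnajb1*, the J protein of the heat shock response, was at 1564, 1118 and 1470.3 normalized counts in WT replicates 1, 2 and 3 and at 1287, 815 and 740.5 in replicates 1, 2 and 3 labelled Bach2-deficient. Its WT libraries were mostly the higher ones, but replicate 1 labelled Bach2-deficient lay above WT replicate 2. The *Dnajb1* log2 fold change was -0.58, with a standard error of 0.25 and a 95% interval of -1.14 to -0.01 (limma adjusted p = 0.239). *Dnaja2*, a J protein made without stress, was at 2077, 1764 and 2144 normalized counts in WT replicates 1, 2 and 3 and at 1376, 1694 and 1612 in replicates 1, 2 and 3 labelled Bach2-deficient. Its groups did not overlap, and the gap between the lowest WT library and the highest other library was small. The *Dnaja2* log2 fold change was -0.35, with a standard error of 0.19 and a 95% interval of -0.78 to 0.07 (limma adjusted p = 0.304). *Dnaja1*, *Dnajb4*, *Dnajb6* and *Dnajc7* overlapped between groups; their log2 fold changes were -0.51, -0.27, -0.37 and -0.24, and the trend in length and GC content, once removed, turned that of *Dnajb4* to 0.06. Without replicate 3 labelled Bach2-deficient, the values of *Dnaja1*, *Dnajb4* and *Dnajc7* were -0.23, -0.04 and -0.09. Without WT replicate 3, *Dnaja1* was at -0.30 and *Dnajb4* turned to 0.10, and without WT replicate 1 *Dnajb4* was at -0.86; without replicate 2 labelled Bach2-deficient, *Dnajb4* and *Dnajc7* were at -0.60 and -0.37. *Dnaja1* was lower at an unadjusted p under 0.05 in DESeq2 and edgeR on 5 libraries, with the length and GC trend removed, with library weights, without WT replicate 1 and without replicate 1 labelled Bach2-deficient.

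The regulators of Hsp70 had 0 of 5 genes lower or higher at an unadjusted p under 0.05 by limma, 0 by edgeR and a median log2 fold change of -0.15. By limma 10.2% of all genes were lower and 10.1% higher at that p. *Bag3*, an exchange factor induced by heat that also delivers clients to autophagy, had the positive value of the group, 1.65, with 7.07, 74.0 and 102 in WT and 205, 130.0 and 70.6 in the other group. WT replicate 1 was low and replicate 1 labelled Bach2-deficient high, and without single libraries its log2 fold change ran from 0.50 to 2.34. *Bag1*, *Hspbp1* and *St13* had values of -0.43, -0.15 and -0.09, and the signs of *Hspbp1* and *St13* turned in other settings. *Stub1*, which encodes the ubiquitin ligase CHIP, was -0.91, with 368, 278 and 369 in WT and 85.7, 173 and 377 in the other group: the low libraries were replicates 1 and 2 labelled Bach2-deficient, while replicate 3 lay at the WT level. Without single libraries its log2 fold change ran from -1.46 to -0.39, the first without replicate 3 and the second without replicate 1 labelled Bach2-deficient. *Stub1* was lower at an unadjusted p under 0.05 with the length and GC trend removed, with library weights and without replicate 3 labelled Bach2-deficient. *Bag1* was lower at that p with library weights, without WT replicate 2 and without replicate 3 labelled Bach2-deficient.

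Both Hsp90 genes were abundant and overlapped between groups. *Hsp90aa1*, the stress-induced form, was at 11429, 9090.4 and 15252 normalized counts in WT replicates 1, 2 and 3 and at 11940.3, 8596 and 6773 in replicates 1, 2 and 3 labelled Bach2-deficient. WT replicate 3 was the highest library and replicate 3 labelled Bach2-deficient the lowest. The *Hsp90aa1* log2 fold change was -0.40, with a standard error of 0.27 and a 95% interval of -0.99 to 0.20 (limma adjusted p = 0.397). It was -0.20 without WT replicate 3, -0.20 without replicate 3 labelled Bach2-deficient and -0.61 without replicate 1 of that group. *Hsp90ab1*, the constitutive form, was at 14614, 11693 and 17938 normalized counts in WT replicates 1, 2 and 3 and at 17864, 13279.6 and 11728 in replicates 1, 2 and 3 labelled Bach2-deficient. WT replicate 3 and replicate 1 labelled Bach2-deficient were nearly equal at the top. The *Hsp90ab1* log2 fold change was -0.05, with a standard error of 0.24 and a 95% interval of -0.58 to 0.49 (limma adjusted p = 0.928), and it turned to 0.04 with quantile normalization, 0.11 without WT replicate 3 and 0.08 without replicate 3 labelled Bach2-deficient.

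Of the 8 cochaperones of Hsp90, 3 were lower without overlap between groups, where 12.2% of all genes were. *Stip1*, which encodes Hop, the adaptor that passes clients from Hsp70 to Hsp90, was at 3068, 2169 and 3946 normalized counts in WT replicates 1, 2 and 3 and at 1559, 1237 and 1255 in replicates 1, 2 and 3 labelled Bach2-deficient. Every WT library lay above every other library. The *Stip1* log2 fold change was -1.15, with a standard error of 0.24 and a 95% interval of -1.68 to -0.61 (limma adjusted p = 0.141), and it ran from -1.37 to -0.94 over the fits that each left out 1 library. *Ahsa1*, which encodes Aha1, the activator of the Hsp90 ATPase, was at 1917, 1777 and 2806 normalized counts in WT replicates 1, 2 and 3 and at 999, 1096 and 1029 in replicates 1, 2 and 3 labelled Bach2-deficient. Here the libraries labelled Bach2-deficient lay close together, well under the WT libraries. The *Ahsa1* log2 fold change was -1.03, with a standard error of 0.22 and a 95% interval of -1.51 to -0.54 (limma adjusted p = 0.141). The DESeq2 calls on 5 libraries had adjusted p = 0.00505 for *Stip1* and adjusted p = 0.00334 for *Ahsa1*.

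*Fkbp4*, which encodes FKBP52, a partner of Hsp90 in steroid receptor complexes, was at 1816, 946 and 1185 normalized counts in WT replicates 1, 2 and 3 and at 696, 657 and 505 in replicates 1, 2 and 3 labelled Bach2-deficient. WT replicate 1 was the highest, and the groups did not overlap. The *Fkbp4* log2 fold change was -1.05, with a standard error of 0.27 and a 95% interval of -1.64 to -0.45 (limma adjusted p = 0.141). *Fkbp5*, which encodes FKBP51, a relative with the opposite effect on those receptors and a known target of glucocorticoids, was at 331, 536 and 754 normalized counts in WT replicates 1, 2 and 3 and at 1435, 889.8 and 517 in replicates 1, 2 and 3 labelled Bach2-deficient. It leaned the other way, with replicates 1 and 2 labelled Bach2-deficient above every WT library and replicate 3 within the WT range. The *Fkbp5* log2 fold change was 0.77, with a standard error of 0.39 and a 95% interval of -0.11 to 1.64 (limma adjusted p = 0.290). It was 0.41 without replicate 1 labelled Bach2-deficient, 0.45 without WT replicate 1 and 1.14 without replicate 3 labelled Bach2-deficient. Genes on both strands overlap *Fkbp5* in the annotation and can share its reads.

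*Cdc37*, which loads kinases onto Hsp90, was at 1865, 1179 and 1514 normalized counts in WT replicates 1, 2 and 3 and at 689, 756 and 1239 in replicates 1, 2 and 3 labelled Bach2-deficient. Replicate 3 labelled Bach2-deficient lay above WT replicate 2, so the groups overlapped. The *Cdc37* log2 fold change was -0.79, with a standard error of 0.27 and a 95% interval of -1.39 to -0.18 (limma adjusted p = 0.171). *Chordc1* had 2225, 1934 and 2750.3 in WT and 1972, 1805 and 1021 in the other group, with replicate 3 labelled Bach2-deficient lowest and a log2 fold change of -0.57, which was -0.27 without that library. *Chordc1* was lower at an unadjusted p under 0.05 with the length and GC trend removed, with medians set equal, with library weights and without replicate 1 labelled Bach2-deficient. *Ptges3*, which encodes p23, and *Unc45a*, a myosin chaperone, had log2 fold changes of -0.08 and -0.11, with signs that turned in other settings. In all, 7 of the 8 cochaperones had negative values, against 5111 of 11296 genes. At an unadjusted p under 0.05, 4 of the 8 were lower, where 10.2% of all genes were lower.

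**Figure D3:**
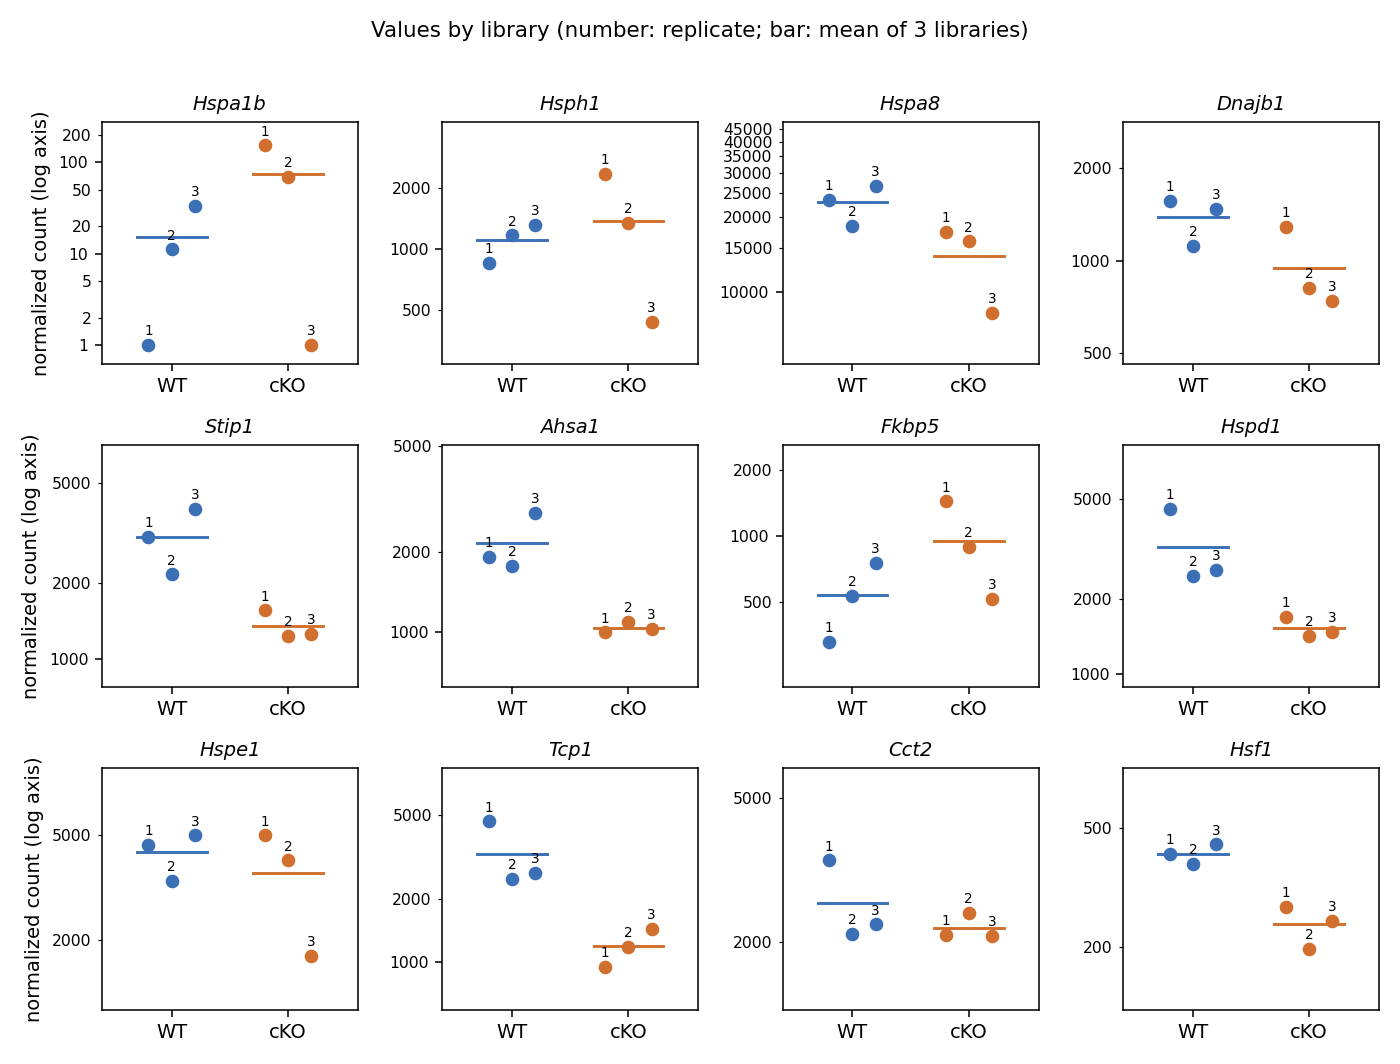
Normalized counts of 12 members in each library on log axes, with the replicate number above each point and a bar at the mean of the 3 libraries of a group. *Stip1*, *Ahsa1*, *Hspd1*, *Tcp1* and *Hsf1* have every WT library above every library labelled Bach2-deficient. In *Hspa1b*, *Hsph1*, *Fkbp5* and *Hspe1* the libraries labelled Bach2-deficient lie far apart, with replicate 3 the lowest of them.

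All 4 mitochondrial chaperones had negative log2 fold changes with 6 libraries. *Hspd1* was at 4575, 2479 and 2615 normalized counts in WT replicates 1, 2 and 3 and at 1695, 1429 and 1479 in replicates 1, 2 and 3 labelled Bach2-deficient. WT replicate 1 was the highest, and all 3 libraries labelled Bach2-deficient lay close together under the WT values. The *Hspd1* log2 fold change was -1.02, with a standard error of 0.25 and a 95% interval of -1.57 to -0.46 (limma adjusted p = 0.141). *Hspe1*, read from the other strand of the stretch printed above, was at 4591, 3363 and 5006 normalized counts in WT replicates 1, 2 and 3 and at 5001, 4020.3 and 1744 in replicates 1, 2 and 3 labelled Bach2-deficient. Its low library was replicate 3 labelled Bach2-deficient, while replicates 1 and 2 lay within the WT range. The *Hspe1* log2 fold change was -0.38, with a standard error of 0.35 and a 95% interval of -1.16 to 0.40 (limma adjusted p = 0.538). It turned to 0.07 without replicate 3 labelled Bach2-deficient and was -0.69 without replicate 1 of that group. As a description chosen after the values were seen, the log2 ratio of *Hspe1* over *Hspd1* was 0.01, 0.44 and 0.94 in WT replicates 1, 2 and 3 and 1.56, 1.49 and 0.24 in replicates 1, 2 and 3 labelled Bach2-deficient. The 2 genes overlap at their 5′ ends on opposite strands, and the counting was not stated to use strand.

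*Trap1*, the Hsp90 of mitochondria, was at 674, 350.0 and 418 normalized counts in WT replicates 1, 2 and 3 and at 282, 343 and 335 in replicates 1, 2 and 3 labelled Bach2-deficient. The groups did not overlap, although WT replicate 2 and replicate 2 labelled Bach2-deficient were almost equal. The *Trap1* log2 fold change was -0.53, with a standard error of 0.29 and a 95% interval of -1.18 to 0.11 (limma adjusted p = 0.313). It was -0.26 without WT replicate 1 and -0.73 without WT replicate 2, when it was lower at an unadjusted p under 0.05. *Hspa9*, the Hsp70 of mitochondria, had 2166, 888 and 659 in WT and 1036, 945 and 731 in the other group, with WT replicate 1 high and a log2 fold change of -0.28 that turned to 0.22 in limma without that library.

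Of the CCT chaperonin, 8 of 8 subunits had negative log2 fold changes, with a median of -0.68, though *Cct2* and *Cct6a* turned positive in edgeR on 5 libraries. At an unadjusted p under 0.05, 6 of the 8 were lower, where 10.2% of all genes were lower. The groups of 6 subunits did not overlap, where 12.2% of all genes were lower without overlap. With the length and GC trend removed, the subunits had a median of -0.46, and 4 of the 8 were lower at that p. In that fit 9.26% of all genes were lower. The 8 cochaperones of Hsp90 had a median of -0.68 as deposited, and with the trend removed 5 were lower at that p, with a median of -0.79. *Tcp1*, which encodes subunit 1, was at 4681, 2483 and 2646 normalized counts in WT replicates 1, 2 and 3 and at 940.0, 1179 and 1432 in replicates 1, 2 and 3 labelled Bach2-deficient. It had the largest fold change of the 8 subunits, with every WT library above every other library. The *Tcp1* log2 fold change was -1.43, with a standard error of 0.27 and a 95% interval of -2.03 to -0.82 (limma adjusted p = 0.141), and it ran from -1.59 to -1.14 over the fits that each left out 1 library. DESeq2 on 5 libraries gave *Tcp1* an adjusted p = 0.00334. Genes on the opposite strand and a small nucleolar RNA gene overlap *Tcp1*, and other annotated genes overlap *Cct7*, *Cct8*, *Trap1* and *Ahsa1*, so reads of these genes may include those of the neighbours.

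*Cct8* was at 8045, 5421 and 6519 normalized counts in WT replicates 1, 2 and 3 and at 2963, 3183 and 4151 in replicates 1, 2 and 3 labelled Bach2-deficient. WT replicate 2 was the lowest of its group and still above every other library (log2 fold change -0.95, standard error 0.22, limma adjusted p = 0.141). *Cct3* was at 3463, 2419.5 and 3132 normalized counts in WT replicates 1, 2 and 3 and at 1438, 1736 and 1883 in replicates 1, 2 and 3 labelled Bach2-deficient. It had the same order, with no overlap (log2 fold change -0.83, standard error 0.21, limma adjusted p = 0.141). *Cct7* was at 4561, 3035 and 4391 normalized counts in WT replicates 1, 2 and 3 and at 2289, 2075 and 2823 in replicates 1, 2 and 3 labelled Bach2-deficient. Replicate 3 labelled Bach2-deficient came nearest to WT, and the groups did not overlap (log2 fold change -0.73, standard error 0.22, limma adjusted p = 0.151).

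*Cct5* was at 7189, 3703 and 4210.3 normalized counts in WT replicates 1, 2 and 3 and at 3068, 2766 and 3559 in replicates 1, 2 and 3 labelled Bach2-deficient. WT replicate 1 was far above the rest, and the lowest WT library was just above the highest of the others (log2 fold change -0.63, standard error 0.26, limma adjusted p = 0.212). *Cct4* was at 3324, 2845 and 3413 normalized counts in WT replicates 1, 2 and 3 and at 2309, 2377 and 2191 in replicates 1, 2 and 3 labelled Bach2-deficient, with small gaps and no overlap (log2 fold change -0.47, standard error 0.18, limma adjusted p = 0.191). Both were past an unadjusted p of 0.05 with 6 libraries and not without WT replicate 1, replicate 1 labelled Bach2-deficient or replicate 2 labelled Bach2-deficient, nor after removal of the length and GC trend; *Cct4* was also lost without WT replicate 3. Both were lost with quantile normalization and with no variance trend, and *Cct5* in DESeq2 and edgeR on 5 libraries. The log2 fold change of *Cct4* ran from -0.56 to -0.42 over the fits that each left out 1 library, and that of *Cct5* from -0.82 to -0.34, the latter value without WT replicate 1.

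*Cct2* was at 3361, 2099.8 and 2234 normalized counts in WT replicates 1, 2 and 3 and at 2087, 2407 and 2072 in replicates 1, 2 and 3 labelled Bach2-deficient. Outside WT replicate 1, which was high, the 5 libraries were nearly equal. The *Cct2* log2 fold change was -0.20, with a standard error of 0.22 and a 95% interval of -0.69 to 0.29 (limma adjusted p = 0.611), and its sign turned to 0.12 after removal of the length and GC trend and to 0.01 without WT replicate 1. *Cct6a* had 4361, 1829.5 and 2112 in WT and 1989, 2049.7 and 1916 in the other group, high in WT replicate 1 alone and with a log2 fold change of -0.37, or 0.01 without that library. The log2 ratio of *Cct2* over *Tcp1*, chosen after the values were seen, was -0.48, -0.24 and -0.24 in WT replicates 1, 2 and 3 and 1.15, 1.03 and 0.53 in replicates 1, 2 and 3 labelled Bach2-deficient. It was higher in each of the 3 libraries of the latter group than in each WT library, and no test was run on it.

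The small heat shock protein gene *Hspb1* was scarce, with 42.4, 25.8 and 106 in WT and 20.7, 27.5 and 4.09 in the other group. WT replicate 3 was the highest and replicate 3 labelled Bach2-deficient the lowest (log2 fold change -1.77, standard error 0.87, limma adjusted p = 0.273). Its log2 fold change was -1.22 without WT replicate 3, -1.01 without replicate 3 labelled Bach2-deficient and -2.25 without replicate 2 of that group. *Hspb1* was lower at an unadjusted p under 0.05 in DESeq2 and edgeR on 5 libraries, with the length and GC trend removed, with quantile normalization, with library weights, without WT replicate 2 and without replicate 2 labelled Bach2-deficient. *Hsf1*, the factor that drives the heat shock response, was at 409.8, 379 and 441 normalized counts in WT replicates 1, 2 and 3 and at 272, 197 and 244 in replicates 1, 2 and 3 labelled Bach2-deficient. Every WT library lay above every other library, and its spread within groups was small. The *Hsf1* log2 fold change was -0.79, with a standard error of 0.26 and a 95% interval of -1.36 to -0.23 (limma adjusted p = 0.159). *Hsf2*, a partner of HSF1, was at 0, 42.6 and 80.1 normalized counts in WT replicates 1, 2 and 3 and at 65.0, 81.7 and 33.8 in replicates 1, 2 and 3 labelled Bach2-deficient. WT replicate 1 was listed at 0 and set the fitted difference. The *Hsf2* log2 fold change was 1.92, with a standard error of 1.40 and a 95% interval of -1.19 to 5.02 (limma adjusted p = 0.432), and without that library it was -0.05 in limma and -0.06 in DESeq2.

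Levels can be compared between genes per kb of the longest annotated transcript. In WT the order began with *Hspa8* at 9528 ± 1735 (SD, n = 3) normalized counts per kb, *Hsp90ab1* at 5852 ± 1240.0 (SD, n = 3), *Hspe1* at 5581 ± 1104 (SD, n = 3) and *Hsp90aa1* at 3634 ± 948 (SD, n = 3). The SDs of *Hsp90ab1* and *Hspe1* overlapped, so their order is not settled. In the libraries labelled Bach2-deficient the level of *Hspa8* was 5786 ± 2065 (SD, n = 3) per kb and that of *Hsp90ab1* 5671 ± 1266 (SD, n = 3), so that *Hspa8* no longer stood above *Hsp90ab1* beyond the spread. The low *Hspa8* library was replicate 3 of that group, at 8209 normalized counts, with *Hsp90ab1* at 11728. Comparing SDs does not use the fact that both genes were measured in the same libraries. On the same scale *Hspa1b* was at 5.41 ± 5.88 (SD, n = 3) in WT, against 26.6 ± 27.3 (SD, n = 3) for the group labelled Bach2-deficient.

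Each library was also described by itself. The median deviation of the 41 members from their means over the 6 libraries was 0.40, -0.01 and 0.41 in WT replicates 1, 2 and 3 and -0.18, -0.11 and -0.37 in replicates 1, 2 and 3 labelled Bach2-deficient, against -0.06, 0.02 and 0.05 in WT replicates 1, 2 and 3 and 0.08, 0.07 and 0.05 in replicates 1, 2 and 3 labelled Bach2-deficient for all genes tested. WT replicates 1 and 3 were high, WT replicate 2 lay near 0 and replicate 3 labelled Bach2-deficient was the lowest. Without WT replicate 1, the members' medians in replicates 1 and 2 labelled Bach2-deficient were -0.06 and -0.01. After removal of the length and GC trend, replicate 1 labelled Bach2-deficient was at -0.06, above WT replicate 2 at -0.09. All genes tested were then at 0.03 in the former library and -0.05 in the latter, so relative to all genes the order was the reverse. Of the 41 members, 19 had their highest value in WT replicate 1 and 14 in WT replicate 3, and 15 had their lowest value in replicate 3 labelled Bach2-deficient and 11 in replicate 1. Of all genes tested, 26.7% had their highest value in WT replicate 1 and 14.3% in WT replicate 3, and 9.56% had their lowest value in replicate 3 labelled Bach2-deficient and 21.3% in replicate 1. WT replicate 1 also held the lowest value of 34.2% of all genes tested.

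The median deviation of the 16 heat-inducible members past the minimum was 0.27, 0.09 and 0.57 in WT replicates 1, 2 and 3 and 0.11, -0.07 and -0.76 in replicates 1, 2 and 3 labelled Bach2-deficient. The list held *Hspa1b*, *Hsph1*, *Dnajb1*, *Dnaja1*, *Dnajb4*, *Bag3*, *Hspb1*, *Hsp90aa1*, *Hspa8*, *Hspa4l*, *Hspd1*, *Hspe1*, *Chordc1*, *Ahsa1*, *Stip1* and *Fkbp4*. It thus includes *Hspa8*, called constitutive above, and shares *Chordc1*, *Ahsa1*, *Stip1* and *Fkbp4* with the 8 Hsp90 cochaperones. Replicate 3 labelled Bach2-deficient was low by itself, with the lowest value of 10 of the 16 genes, and replicate 1 of that group lay between WT replicates 1 and 2 as deposited. With the length and GC trend removed, replicate 1 of that group was at 0.01, below WT replicate 2 at 0.04, and replicate 3 at -0.80. The median deviation of the 8 CCT subunits was 0.70, 0.03 and 0.40 in WT replicates 1, 2 and 3 and -0.38, -0.42 and -0.21 in replicates 1, 2 and 3 labelled Bach2-deficient, and that of the 8 Hsp90 cochaperones 0.49, 0.05 and 0.42 in WT replicates 1, 2 and 3 and -0.16, -0.24 and -0.50 in replicates 1, 2 and 3 labelled Bach2-deficient. With the trend removed, the CCT subunits were at -0.19, -0.24 and -0.25 in replicates 1, 2 and 3 labelled Bach2-deficient. For these 2 lists each WT library lay above each library labelled Bach2-deficient. Without replicate 3 labelled Bach2-deficient, 14 members were lower and 3 higher (*Hsph1*, *Fkbp5* and *Hspa1b*) at an unadjusted p under 0.05, and of all 11296 genes 1586 were lower and 1484 higher. Without WT replicate 3, 11 members were lower and 3 higher (*Bag3*, *Hsf2* and *Fkbp5*), and of all genes 791 were lower and 1094 higher. Of the 14 members lower with 6 libraries, *Dnajb1* was lost without WT replicate 1, WT replicate 3, replicate 2 labelled Bach2-deficient or replicate 3 labelled Bach2-deficient, *Cdc37* without replicate 1 or 2 labelled Bach2-deficient and *Hsf1* without replicate 2 labelled Bach2-deficient. *Dnajb1* was also lost in DESeq2 and edgeR on 5 libraries, with quantile normalization and with no variance trend, and *Cdc37* in edgeR and with no variance trend.

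**Figure D4:**
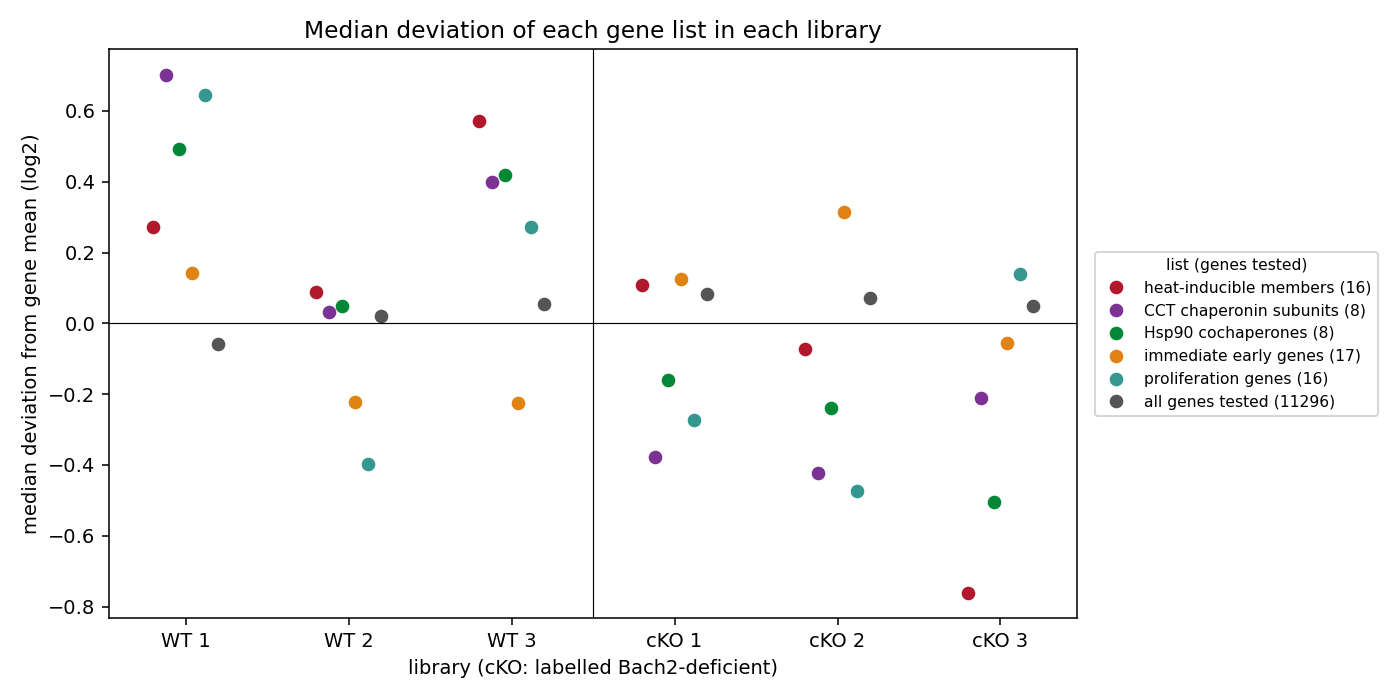
Median deviation (log2) of 6 gene lists in each library, from the mean of each gene over the 6 libraries, with the genes tested per list in the legend. Heat-inducible members reach -0.76 in replicate 3 labelled Bach2-deficient, and CCT subunits lie at -0.21 to -0.42 in all 3 libraries of that group. All genes tested lie between -0.06 and 0.08. The heat-inducible members and the Hsp90 cochaperones share genes.

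Genes that also respond to handling or to the state of the cell were read in the same way. Among all genes, limma had 10.2% lower and 10.1% higher at an unadjusted p under 0.05. Of 17 immediate early genes tested, limma had 3 higher and 0 lower at an unadjusted p under 0.05, and edgeR had 4 higher and 0 lower. The 3 were *Egr1* (log2 fold change 1.49, standard error 0.38, limma adjusted p = 0.141), *Ier5* (log2 fold change 1.25, standard error 0.32, limma adjusted p = 0.141) and *Jund* (log2 fold change 1.09, standard error 0.31, limma adjusted p = 0.146). The median deviation of this list was 0.14, -0.22 and -0.23 in WT replicates 1, 2 and 3 and 0.12, 0.31 and -0.06 in replicates 1, 2 and 3 labelled Bach2-deficient, without the low value that the heat-inducible members had in replicate 3 labelled Bach2-deficient. Of 16 proliferation genes, limma had 4 lower and 1 higher at that p, edgeR 0 lower and 2 higher, and limma with the length and GC trend removed 2 lower and 0 higher. Their median deviation was 0.64, -0.40 and 0.27 in WT replicates 1, 2 and 3 and -0.27, -0.47 and 0.14 in replicates 1, 2 and 3 labelled Bach2-deficient. The proliferation genes, like the CCT subunits, were highest in WT replicate 1, but replicate 3 labelled Bach2-deficient lay above WT replicate 2. The part of handling or of cycling cells in the members' values was not tested.

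Other chaperone genes were read from 3 lists. For comparison, limma had 10.2% of all genes lower and 10.1% higher at an unadjusted p under 0.05. Of 42 other cytosolic chaperone genes tested, 8 were lower and 3 higher at an unadjusted p under 0.05, with a median log2 fold change of -0.08. The smallest p-values were those of *Vbp1*, a prefoldin subunit that hands actin and tubulin to CCT (log2 fold change -0.79, standard error 0.20, limma adjusted p = 0.141), *Ppid*, a cyclophilin that binds Hsp90 (log2 fold change -0.83, standard error 0.24, limma adjusted p = 0.146), and *Bag2* (log2 fold change -2.17, standard error 0.69, limma adjusted p = 0.158). Of 10 other mitochondrial chaperone and protease genes, 1 was lower and 2 higher, with a median of -0.07; *Afg3l2*, *Lonp1* and *Grpel1* had log2 fold changes of 0.75, 0.70 and -0.60. Of 15 ER chaperone genes, 3 were lower and 0 higher, with a median of -0.33: *Ppib* (log2 fold change -0.99, standard error 0.26, limma adjusted p = 0.141), *Pdia3* (log2 fold change -1.05, standard error 0.29, limma adjusted p = 0.144) and *Pdia4* (log2 fold change -0.97, standard error 0.30, limma adjusted p = 0.156).

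Log2 fold changes also varied with transcript length. Across 11269 genes, which are not independent replicates, Spearman's rho of transcript length (the longest annotated) with log2 fold change was 0.339, and the members tested had a median length of 2454 bases against 2997 for all. After each library was freed of its smooth dependence on length and GC, the median log2 fold change was -0.44 for the members and -0.04 for all genes, a shift of the latter from 0.08. limma then had 16 members lower at an unadjusted p under 0.05, where 9.26% of all genes were lower, and 0 higher, where 4.74% were higher. Among all genes the split of higher to lower at that p was 1144 to 1157 as deposited, 534 to 1044 with the trend removed and 904 to 1435 with library medians set equal. Of the 14 members lower before, 12 were among the 16. *Cdc37* moved from -0.79 to -1.37 and *Fkbp5* from 0.77 to 0.38.

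**Figure D5:**
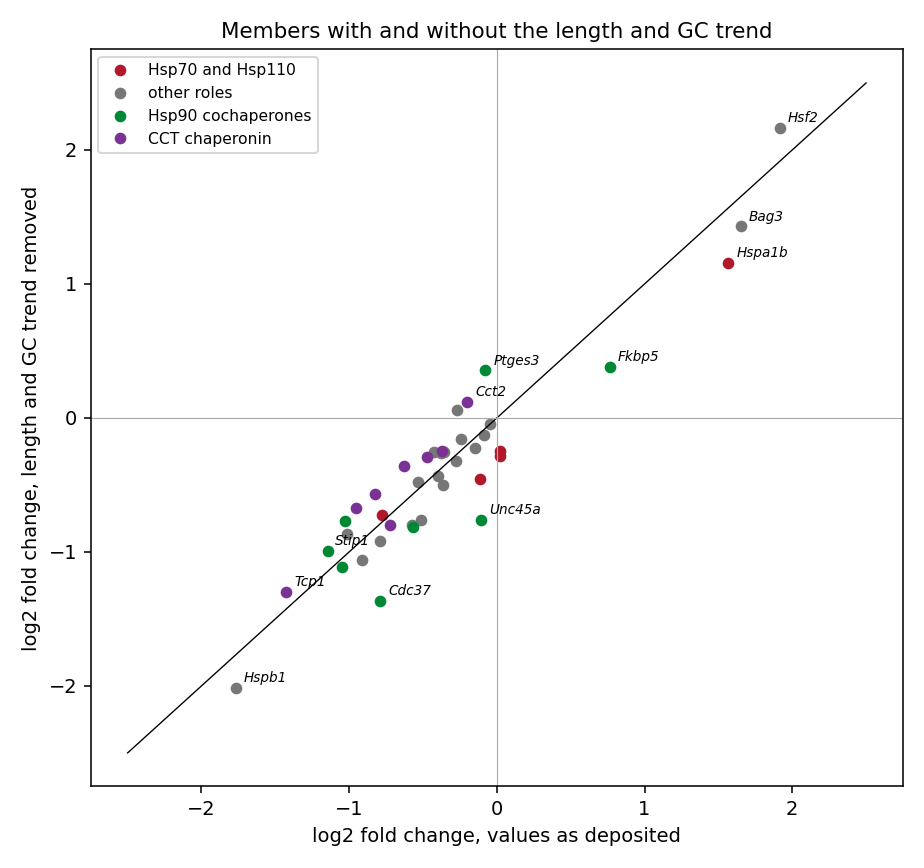
Log2 fold change of the 41 members with values as deposited (horizontal) and after removal of the length and GC trend from each library (vertical), colored by role, with the line of equality. *Tcp1* and *Stip1* stay near the line at -1.43 and -1.15 on the horizontal axis, and *Ptges3*, *Cct2*, *Dnajb4*, *Hspa4l* and *Hsph1* change sign.

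Markers of other cell types differed between libraries. Their counts stand beside 10.2% of all genes lower and 10.1% higher at an unadjusted p under 0.05 by limma. At an unadjusted p under 0.05 limma had 1 lower of 7 B cell markers tested, 1 lower of 4 plasma cell markers, 1 lower of 9 myeloid and dendritic cell markers, 1 lower and 1 higher of 7 CD8 T and NK cell markers and 0 of 2 stromal and endothelial markers. edgeR on 5 libraries had 3 lower of the B cell markers, 1 lower of the plasma cell markers, 1 lower of the myeloid and dendritic cell markers, 2 lower and 1 higher of the CD8 T and NK cell markers and 0 of the stromal and endothelial markers. DESeq2 called 1 B cell marker lower at an adjusted p under 0.01 and more than 2-fold, and 0 of the other 4 lists. *Jchain* was the most abundant plasma cell marker on the mean over 6 libraries, while *Xbp1* was the most abundant in WT replicate 1 and in replicates 2 and 3 labelled Bach2-deficient, and the 5 plasma cell markers summed to 2006, 30156 and 8394 in WT replicates 1, 2 and 3 and 3204, 1567 and 1591 in replicates 1, 2 and 3 labelled Bach2-deficient. The 10 myeloid and dendritic cell markers summed to 6612, 16251 and 9025 in WT replicates 1, 2 and 3 and 7657, 14803 and 5480.1 in replicates 1, 2 and 3 labelled Bach2-deficient, with *Cst3* the most abundant on the mean over 6 libraries and *Lyz2* in WT replicates 2 and 3. Both sums were highest in WT replicate 2, the WT library with the lowest median deviation of the members. Replicate 2 labelled Bach2-deficient had the highest median deviation of the members in its group, -0.11. It also had the highest myeloid sum and the lowest plasma cell sum of that group. The 10 B cell markers summed to 242, 846 and 596 in WT replicates 1, 2 and 3 and 463, 412 and 365 in replicates 1, 2 and 3 labelled Bach2-deficient, with *Cd79b* the most abundant on the mean over 6 libraries and *Cd22* in replicates 1 and 2 labelled Bach2-deficient. The 7 CD8 T and NK cell markers summed to 999, 1389.8 and 981 in WT replicates 1, 2 and 3 and 570.5, 1070.1 and 788 in replicates 1, 2 and 3 labelled Bach2-deficient, with *Cd8b1* the most abundant on the mean over 6 libraries, *Eomes* in WT replicate 1 and *Gzmb* in replicate 2 labelled Bach2-deficient. The sums of the 5 stromal and endothelial markers found in the table were 450.2, 524 and 539.7 in WT replicates 1, 2 and 3 and 613, 518 and 465 in replicates 1, 2 and 3 labelled Bach2-deficient, led in each library by *Pecam1*, which leukocytes also express. Of these lists, 5 B cell, 2 plasma cell, 1 myeloid, 1 CD8 T and NK cell and 4 stromal markers were listed at 0 in at least 1 library. Their part in the members' values was not tested.

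Subsets within the sort were examined with lists of their own. Of 14 Tfh markers, 4 were higher and 2 lower at an unadjusted p under 0.05, where 10.1% of all genes were higher and 10.2% lower. *Cd3e*, *Tox2* and *Icos* had the smallest p-values and log2 fold changes of -1.02, 1.10 and -1.03. edgeR on 5 libraries had 3 higher and 4 lower, and limma with the length and GC trend removed 2 higher and 2 lower. At an adjusted p under 0.01 and more than 2-fold, DESeq2 called 2 Tfh markers and 1 follicular regulatory T cell marker lower. It called 0 naive T cell markers, and 0 of these lists higher. Of 5 follicular regulatory T cell markers, 0 were higher and 2 lower, *Foxp3* at -1.76 and *Tnfrsf18* at -0.75; the list, led by *Ikzf2*, summed to 6415, 6887 and 8672 in WT replicates 1, 2 and 3 and 6951, 5858 and 5249 in replicates 1, 2 and 3 labelled Bach2-deficient. Of 7 naive T cell markers, 1 was higher, *Tcf7* at 0.50, and 1 lower, *Ccr7* at -1.14. The part of these cells in the members' values was not tested.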

How the data were processed

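RNA sequencing of sorted Tfh cells gave 6 libraries. Per the study, counting per gene was done with HTSeq, and the signal deposited by the authors is the normalized read count, that is, counts scaled by 1 size factor for each library. The study's methods name Tophat2 as the aligner, and the submitters' processing notes list STAR 2.5.2b, DESeq2 1.20.0, R 3.5.1 and the builds GRCm38 and mm10.

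Values were tested as log2(value + 1) with limma 3.58.1 in R 4.3.3, letting the variance follow the mean, on 11296 genes (minimum 10 in 3 libraries), with Benjamini-Hochberg adjustment over them. Whole reads were recovered by dividing by the smallest positive value of a library, which gave whole numbers for 100% of values within 1e-06. The 5 libraries other than WT replicate 1, with 5045131 to 10987752 reads, entered edgeR 4.0.16 and DESeq2 1.42.0. The values of WT replicate 1 were whole multiples too, but its smallest positive value lay too near a power of 10 for the recovery rule used. PCR copies were not told apart, and depth limits the scarce genes. The scripts were tested on simulated data, in which 200 of 11296 genes were changed, 2-fold or 4-fold in equal numbers. At an adjusted p under 0.01 and more than 2-fold, limma called 13 of the 2-fold changes, 67 of the 4-fold changes and 3 unchanged genes. On 5 libraries DESeq2 called 12, 65 and 6 of these and edgeR 6, 59 and 2. Most 2-fold changes were thus not called in the simulation.

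Lengths, GC content and coordinates come from GENCODE M21 on GRCm38: 14329 of 14744 genes matched by symbol and 369 by an older symbol. The trend in length and GC content was fitted with mgcv 1.9.3. The members and lists were chosen with earlier results of these data known. By-library values are given for 13 members chosen by name and for each member whose groups do not overlap or whose unadjusted limma p is under 0.05; from other lists, at most the 3 genes with the smallest p and the most abundant marker are named. Where other genes are named, they were chosen after their values were seen. Alternatives were pseudocounts of 0.5 and 10, no minimum, a mean of at least 50, quantile normalization, equal medians, no variance trend, library weights, removal of the trend in length and GC content, the count tests, an adjusted p of 0.05, the replicate number as a block and leaving out each library.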

Additional observations from a re-analysis of the deposited data

How the results depend on the processing

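Of the 41 members tested, 27 kept their direction in each of the 18 alternative settings in which they were tested, among them all 14 with an unadjusted limma p under 0.05. *Hspa1b* and *Hspb1*, which are among the 27, were not tested with a mean of at least 50. limma called 0 members lower at an adjusted p under 0.01 and over 2-fold in the settings other than library weights, where it called 4 (*Ahsa1*, *Hsf1*, *Tcp1* and *Stip1*) and where 567 of all genes were called lower and 561 higher; the weights ran from 0.206 for WT replicate 1 to 5.54 for replicate 2 labelled Bach2-deficient. DESeq2 on 5 libraries called 3, and 5 at an adjusted p under 0.05 with no minimum fold, against 0 by limma and by edgeR; 197 of all genes were then lower and 171 higher with DESeq2. At that adjusted p limma had 19 lower with library weights, where 4168 of all genes passed, and 3 without replicate 3 labelled Bach2-deficient, where 507 of all genes passed. Members lower at an unadjusted p under 0.05 numbered 22 with library weights, when 1 was higher (*Fkbp5*) and when 22.8% of all genes were lower and 2748 genes higher. They numbered 9 with no variance trend, when 7.83% of all genes were lower and 1022 genes higher. With single libraries left out, 0 to 3 members were higher at that p, 14 to 23 were lower without overlap and 0 to 4 higher without overlap. Of all genes, 1576 to 2598 were then lower without overlap and 1915 to 3074 higher. The 23 were those without WT replicate 2, where 18.8% of all genes were lower without overlap, and the 4 those without replicate 3 labelled Bach2-deficient, where 27.2% were higher.

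With library weights, the sign turned for *Hspa4* (0.052), *Hspa4l* (-0.15), *Hspbp1* (0.22), *St13* (0.023), *Ptges3* (0.10), *Unc45a* (0.30), *Hspa9* (0.30), *Cct2* (0.063). With edgeR on 5 libraries, the sign turned for *Hspa4* (0.16), *Hspa4l* (-0.17), *Hspbp1* (0.14), *Ptges3* (0.049), *Unc45a* (0.41), *Hspa9* (0.21), *Cct2* (0.0080), *Cct6a* (0.0044), *Hsf2* (-0.027). With DESeq2 on 5 libraries, the sign turned for *Hspa4* (0.13), *Hspa4l* (-0.20), *Hspbp1* (0.12), *Ptges3* (0.024), *Unc45a* (0.38), *Hspa9* (0.19), *Hsf2* (-0.057). With library medians set equal, the sign turned for *Hspa4l* (-0.063), *Hsph1* (-0.062). After removal of the length and GC trend, the sign turned for *Hspa4l* (-0.28), *Hsph1* (-0.25), *Dnajb4* (0.058), *Ptges3* (0.35), *Cct2* (0.12). With quantile normalization, the sign turned for *St13* (0.058), *Hsp90ab1* (0.041), *Ptges3* (0.061). With single libraries left out, log2 fold changes ran for *Hspa4* from -0.26 to 0.16, *Hspa4l* from -0.28 to 0.39, *Hsph1* from -0.51 to 0.69, *Dnajb4* from -0.86 to 0.10, *Hspbp1* from -0.31 to 0.12, *St13* from -0.23 to 0.093, *Hsp90ab1* from -0.22 to 0.11, *Ptges3* from -0.22 to 0.14, *Unc45a* from -0.42 to 0.42, *Hspa9* from -0.63 to 0.22, *Hspe1* from -0.69 to 0.074, *Cct2* from -0.33 to 0.012, *Cct6a* from -0.61 to 0.0135, *Hsf2* from -0.049 to 3.12. The cause was not tested.

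With the replicate number as a block (replicate block), limma called 0 members, 14 were lower at an unadjusted p under 0.05 and the median log2 fold change was -0.40. Of all genes, 9.15% were then lower and 1017 genes higher at that p. The deviations of libraries with the same number correlated at -0.0689, 0.116 and -0.0386, so the numbers were not taken as pairs. Depth limits scarce members such as *Hspa1a*, *Hspa1b*, *Hspb1*, *Hsf2*, *Dnajb4* and *Bag3*.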
